A study of Mus musculus with 6 samples.

Results

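Transcripts of fibrinogen, of blood coagulation and of fibrinolysis were followed in proximal tubules dissected from Clcn5 knockout and wild type mice. The genes were Fga, Fgb and Fgg, which encode the α, β and γ chains of fibrinogen, F3 (tissue factor), F5 (coagulation factor V), Thbd (thrombomodulin), Proc (protein C), Plau (urokinase) and Plat (tissue plasminogen activator). Members were all probe sets annotated with only 1 gene symbol, that symbol being 1 of these 9 genes. They were 12 probe sets for 9 genes, among 45037 probe sets and 18193 genes on the array once controls were set aside. ClC-5, the product of Clcn5, exchanges chloride for protons in endosomes of the proximal tubule, and its loss causes Dent disease in humans. There were 3 arrays of Clcn5 knockout tubules and 3 arrays of wild type tubules, all from kidneys of mice under halothane that were perfused and dissected in ice-cold salt solution. Tubule pieces of 2 mm, 80 to 100 from each kidney, gave RNA that was pooled over mice for each array. The design text gives 3 to 4 mice for a pool and the array records give 7, a difference the files do not settle. The labels give neither strain, sex, age nor the Clcn5 allele.

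Fibrinogen is assembled from pairs of its 3 chains and is cut by thrombin into the fibrin of a clot. The liver makes most of it, and in the acute phase response interleukin-6 raises all 3 chain genes there. Coagulation starts when tissue factor meets factor VII, and factor V is the cofactor with which factor X turns prothrombin into thrombin. Thrombomodulin on the vessel wall turns thrombin towards protein C, which inactivates factor V, and urokinase and tissue plasminogen activator release plasmin, which dissolves fibrin.

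The values are MAS5 signals on a linear scale, and their trimmed mean is the same on every array. Array medians ran from 40.9 to 48.8, with the highest on knockout array 3, whose record is also the only one to name another solution lot. The table used here has no detection calls, so a low signal could not be told from background. The number of arrays limits the precision. All 4 Clcn5 probe sets were lower in knockout tubules, by 2.83-fold to 7.31-fold (limma adjusted p between 1.98e-06 and 0.00733), and on each the knockout and wild type arrays did not overlap. All 15 proximal tubule markers had mean signals above the median probe set, and their summed signal was 60679 to 68809 on knockout and 57105 to 66628 on wild type arrays. Of these, 1 rose, Slc7a13, an amino acid transporter. Summed markers of leukocytes, podocytes, thick ascending limb, distal and collecting duct, fibroblasts and pericytes, and tubule injury were higher on all knockout arrays. Those of endothelial cells, and of erythrocytes and platelets, overlapped between the groups. The summed signal of 14 leukocyte markers was 3150 to 3230 on knockout and 2199 to 2245 on wild type arrays, and that of 9 podocyte markers was 2786 to 3078 on knockout and 2380 to 2461 on wild type arrays. In each of these 2 lists 2 genes rose, Csf1r and Cd74 in the first and Nphs1 and Synpo in the second. Most of the leukocyte sum came from Cd74, with means of 1095 in knockout and 662 in wild type, and from Csf1r, with 873 and 583. At an unadjusted limma p under 0.05, 5 leukocyte and 7 podocyte markers were higher, and 0 were lower in either list. With 50 added to every signal Nphs1 did not pass (limma adjusted p = 0.058). Of 11 tubule injury markers 2 rose, Havcr1 by 2.29-fold (limma adjusted p = 0.0049) and Clu by 1.47-fold (limma adjusted p = 0.0022), and the list's sum was 4614 to 4862 on knockout and 3509 to 3854 on wild type arrays. Most of that sum came from Clu, with means of 2822 in knockout and 1927 in wild type, and from Krt8, with 1114 and 1168. At an unadjusted limma p under 0.05, 4 injury markers were higher and 0 lower. The sum of 5 thick ascending limb markers was 9977 to 10719 on knockout and 8031 to 8350 on wild type arrays (Umod rose), and that of 12 distal and collecting duct markers was 12048 to 12668 on knockout and 10577 to 11940 on wild type arrays (Pvalb, Calb1 and Slc4a1 rose and Aqp3 fell). By the unadjusted rule 3 of the 5 were higher and 0 lower, and 6 of the 12 were higher and 2 lower. The sum of 8 fibroblast and pericyte markers was 1150 to 1178 on knockout and 1021 to 1087 on wild type arrays, with 0 called by limma (2 higher at an unadjusted p under 0.05). For 14 endothelial markers the sums were 3577 to 3897 on knockout and 3562 to 3720 on wild type arrays, and limma called none (0 at an unadjusted p under 0.05 as well). The sums of 6 erythrocyte and platelet markers were 275 to 360 on knockout and 311 to 323 on wild type arrays. Limma called 0 of them (1 higher and 0 lower at an unadjusted p under 0.05). Over all genes limma called 1.36% higher and 1.41% lower at an adjusted p under 0.05, and 7.7% were higher and 6.89% lower at an unadjusted p under 0.05. The part of these cells in the results below was not tested.

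Of the 9 genes 3 were lower in knockout tubules, Fga, Fgg and F5, and none was called higher. Each gene was represented by its probe set with the highest mean, and log2 signals were compared by limma at an adjusted p under 0.05 over all 45037 probe sets. The same rule called 1.41% of 18193 genes lower and 1.36% higher. The members and all gene lists were chosen with earlier results of these data known. Shares over all genes are therefore given for scale and do not test the counts. Counted by probe set, 4 of the 12 were lower, against 0.979% of all probe sets, and 0 of 12 were higher, against 0.913%. Without adjustment, at a p under 0.05, Plat and Proc were 2 further genes with higher signals in knockout, where 7.7% of all genes were higher and 6.89% lower by that rule. With 50 added to every signal before taking logs, which damps dim probe sets, the same 4 probe sets were lower and none higher, against 1.01% and 0.935% of all. The count of 3 lowered genes was 1 without wild type array 1, 2 or 3, and 0 within a single washing station or without an intensity trend in the variances. These counts take F5 from its brighter probe set only. The dimmer one, 1449269_at, was still called without the trend (limma adjusted p = 0.0367). It was also called without any 1 wild type array (limma adjusted p between 0.0151 and 0.0223), but not within the single station (limma adjusted p = 0.0583). The 4 lower probe sets were also those on which all knockout signals lay below all wild type signals, as on 8.6% of all probe sets. On 1 probe set, that of Proc, all knockout signals lay above, as on 9.03% of all. The median log2 change of the 9 genes was −0.27, beside 0.01 over all genes. With 50 added this median was −0.03, beside 0.005 over all genes. The RNA comes from pieces of tissue, so fewer cells of a type and less RNA per cell cannot be told apart.

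**Figure D1:**
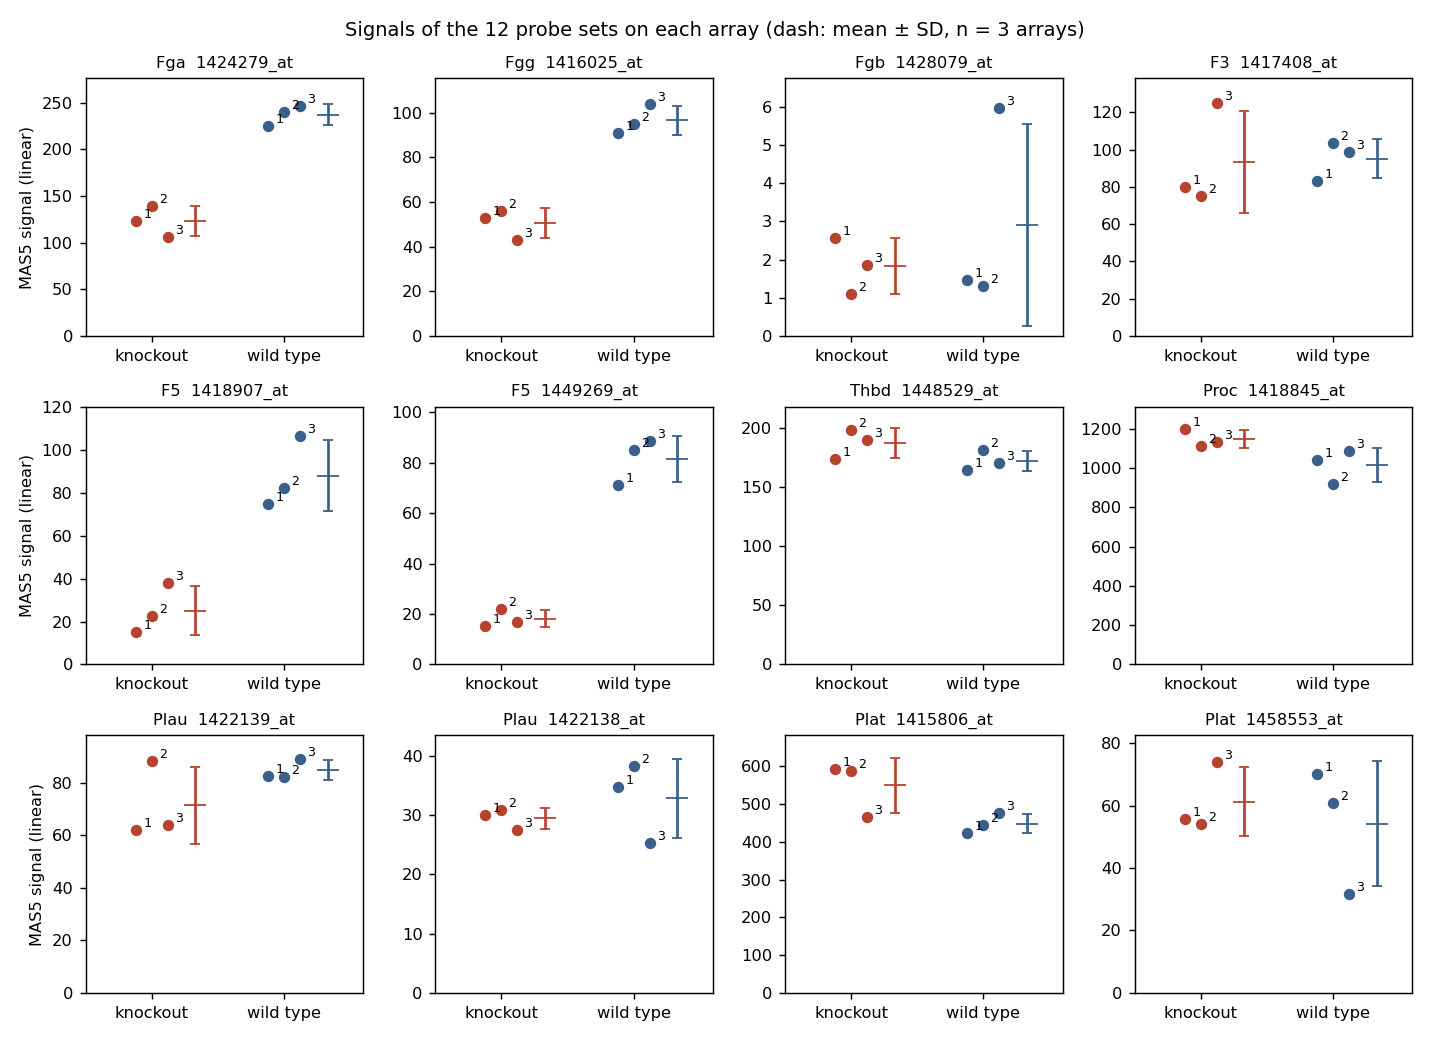
MAS5 signals of the 12 probe sets on a linear scale, each panel from 0, with knockout arrays on the left and wild type arrays on the right. Points are arrays labelled by replicate number, and the dash with its bar is the mean ± SD of 3 arrays. The knockout points of Fga, Fgg and both F5 probe sets lie below all wild type points, and those of Fgb, F3, Thbd, Plau and Plat overlap with wild type.

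The fibrinogen genes are described first, with their promoters, because 2 of the 3 chains fell while the β chain signal was too low to follow. In the RefSeq order of genes, Fgg, Fga and Fgb are neighbours on chromosome 3 with no other coding gene between them. The RefSeq sequences of build GRCm38.p6 run from 250 bases before to 50 after the annotated start and are printed 5′ to 3′ on the strand of the gene. Fga is chr3:83025903-83026202 and Fgg chr3:83007474-83007773, both on the plus strand. Fgb is chr3:83049814-83050113 on the minus strand. The promoter of F5, chr1:164151585-164151884 on the plus strand, is shown as that of the third gene that fell. Capitals mark every match, on either strand, to CTGGGA, the core of interleukin-6 response elements, GTTAAT, part of the site of the liver and kidney factor HNF1, or TTGCNNAA, a site of C/EBP factors.
Fga: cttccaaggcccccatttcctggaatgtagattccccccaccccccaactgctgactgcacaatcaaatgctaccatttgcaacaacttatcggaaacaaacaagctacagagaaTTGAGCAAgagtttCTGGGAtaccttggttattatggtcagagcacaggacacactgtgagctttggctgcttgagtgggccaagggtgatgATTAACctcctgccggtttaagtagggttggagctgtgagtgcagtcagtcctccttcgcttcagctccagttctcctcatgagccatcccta
Fgg: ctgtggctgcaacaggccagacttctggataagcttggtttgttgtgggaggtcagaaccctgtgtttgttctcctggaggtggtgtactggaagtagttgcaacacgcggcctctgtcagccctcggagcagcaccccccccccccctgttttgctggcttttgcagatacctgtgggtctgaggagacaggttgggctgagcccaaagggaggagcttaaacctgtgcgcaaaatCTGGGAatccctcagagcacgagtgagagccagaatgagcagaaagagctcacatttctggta
Fgb: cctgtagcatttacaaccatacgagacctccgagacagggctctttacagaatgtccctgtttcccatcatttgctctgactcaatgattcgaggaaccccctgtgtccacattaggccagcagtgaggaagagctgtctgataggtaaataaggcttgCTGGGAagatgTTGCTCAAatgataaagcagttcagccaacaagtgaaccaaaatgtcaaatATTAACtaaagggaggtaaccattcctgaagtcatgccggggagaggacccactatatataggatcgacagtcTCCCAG
F5: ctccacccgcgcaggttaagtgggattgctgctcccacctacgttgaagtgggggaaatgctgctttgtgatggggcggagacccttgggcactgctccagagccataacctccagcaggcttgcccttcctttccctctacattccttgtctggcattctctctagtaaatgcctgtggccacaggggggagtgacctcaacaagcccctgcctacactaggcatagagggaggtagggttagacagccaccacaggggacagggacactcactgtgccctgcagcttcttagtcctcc
CTGGGA was found once in Fga and Fgg, at 2 places in Fgb and at none in F5, and 31.8% of 32851 promoters of this length held it. GTTAAT was found once in Fga and once in Fgb and in neither Fgg nor F5, and 7.1% of the promoters held it. TTGCNNAA also had 1 match in Fga and 1 in Fgb, and 10.8% of the promoters held it. No match overlapped another in these windows. Of the genes that fell, Fga and Fgg both hold CTGGGA, and F5 holds none of these motifs. The promoter with the most matches, 1 of them after the annotated start, is that of Fgb, whose probe set was too dim to be read. Whether the motifs bear on the changes was not tested.

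Fga, which encodes the α chain, had signals of 123, 139 and 106 on the knockout arrays, against 225, 240 and 246 on the wild type arrays. The highest knockout signal lay far below the lowest wild type signal. The means were 123 ± 16.4 in knockout and 237 ± 11.2 in wild type (SD, n = 3 each), and Fga fell 1.94-fold (log2 change −0.95, SE 0.12, limma adjusted p = 0.00335). With 50 added to every signal the log2 change was −0.73 (95% interval −0.93 to −0.54, limma adjusted p = 0.0047). The arrays were washed on 2 fluidics stations, and with the station as a block the limma adjusted p was 0.00687. Within station 1, which held 2 arrays of each group, the log2 change of Fga was −0.84 (limma adjusted p = 0.0552), and on station 2 knockout array 3 had 106 and wild type array 2 had 240. The call ended within station 1 and without an intensity trend in the variances (limma adjusted p = 0.104).

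Fgg, which encodes the γ chain, had signals of 52.9, 56.0 and 43.2 on the knockout arrays, against 90.8, 95.05 and 104 on the wild type arrays. As with Fga, knockout array 3 was the lowest and the groups did not overlap. The means were 50.7 ± 6.69 in knockout and 96.6 ± 6.64 in wild type (SD, n = 3 each), and Fgg fell 1.91-fold (log2 change −0.94, SE 0.17, limma adjusted p = 0.0227). With 50 added the log2 change was −0.54 (limma adjusted p = 0.0388). With the station as a block the limma adjusted p was 0.033. On station 1 the log2 change was −0.84 (limma adjusted p = 0.162), and on station 2 knockout array 3 had 43.2 and wild type array 2 had 95.05. The changes of Fga and Fgg differed by −0.02 on the log2 scale. On single arrays Fga minus Fgg was 1.22, 1.31 and 1.30 in knockout, against 1.31, 1.34 and 1.25 in wild type, and the groups overlapped (two-sided exact permutation p = 0.6, smallest possible 0.1, adjusted over 4 pairs 0.8). Fgg passed in 6 of 15 other settings. Among those in which it did not were quantile normalization, median centring, no trend, station 1 alone, and leaving out knockout array 1 or any 1 wild type array (limma adjusted p between 0.0511 and 0.162). In each of these settings its log2 change stayed between −0.98 and −0.84.

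Fgb, which encodes the β chain, had signals of 2.56, 1.10 and 1.86 on the knockout arrays, against 1.46, 1.30 and 5.95 on the wild type arrays. At most 14.7% of the probe sets of an array were dimmer, so no level could be read in either group. Its log2 change of −0.37 had a 95% interval of −2.06 to 1.32 (limma adjusted p = 0.908), and with 50 added it was −0.03. Without wild type array 3 the log2 change was 0.34. The interval of Fgb holds both 0 and the changes of Fga and Fgg.

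Genes next to the fibrinogen cluster, looked up after the values of the chains were seen, had the following values. Plrg1, a splicing factor, had mean signals of 219 in knockout and 204 in wild type (log2 change 0.10, limma adjusted p = 0.843). Lrat, which esterifies retinol, was dim, with means of 15.8 and 23.2 in knockout and wild type (log2 change −0.82, limma adjusted p = 0.652). Neither the further neighbour Rbm46, an RNA-binding protein gene (limma adjusted p = 0.768), nor Gm10710 (0.821) passed the threshold.

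F3, the initiator of coagulation, had signals of 79.9, 75.4 and 125 on the knockout arrays, against 83.3, 103 and 98.7 on the wild type arrays. The groups overlapped, and knockout array 3 was the highest of all 6. The means were 93.4 ± 27.4 in knockout and 95.2 ± 10.5 in wild type (SD, n = 3 each). The log2 change was −0.06, with a 95% interval of −0.52 to 0.40 (limma adjusted p = 0.953). It was −0.29 without knockout array 3 and above 0 without knockout array 1 or 2 or wild type array 2, up to 0.077, so it had no settled direction.

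F5, whose product is the cofactor of factor X, was measured by 2 probe sets, and both were lower in knockout tubules. Probe set 1418907_at had signals of 15.2, 22.4 and 37.8 on the knockout arrays, against 75.1, 82.4 and 107 on the wild type arrays. The groups were apart, and knockout array 3 was the brightest of its group. The log2 change was −1.89 (SE 0.33, limma adjusted p = 0.0225), a fitted 3.71-fold fall. Probe set 1449269_at had signals of 15.4, 22.1 and 16.9 on the knockout arrays, against 71.1, 85.1 and 88.5 on the wild type arrays. On this probe set knockout array 3 did not stand apart from the other knockout arrays. Its log2 change was −2.18 (SE 0.25, limma adjusted p = 0.00219), a fitted 4.53-fold fall. The knockout signals lie where 26.1% to 43.2% of the probe sets of an array are dimmer, so the fold depends on how low signals are treated. With 50 added the log2 changes were −0.88 and −0.95 (limma adjusted p = 0.0257 and 0.00452). With the station as a block the limma adjusted p-values were 0.0309 and 0.00606. On station 1 the log2 changes were −2.28 and −2.10 (limma adjusted p = 0.0553 and 0.0583). On station 2 the signals in knockout and wild type were 37.8 and 82.4 on the first probe set and 16.9 and 85.1 on the second.

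The call of 1418907_at ended when knockout array 2 or any 1 wild type array was left out (limma adjusted p between 0.0764 and 0.121), and that of 1449269_at held without each array in turn (limma adjusted p up to 0.0223). Whether F5 fell more than Fga was tested on the difference of their log2 signals on each array. The change of F5 minus that of Fga was −0.94 with 1418907_at (two-sided exact permutation p = 0.3) and −1.22 with 1449269_at (p = 0.1 in the exact permutation test, the smallest possible). After adjustment over the 4 pairs these p-values were 0.6 and 0.4, and since 3 arrays in each group allow no p under 0.1, this test could not pass. With 1449269_at the log2 signal of F5 minus that of Fga was −3.00, −2.66 and −2.65 on the knockout arrays, against −1.66, −1.50 and −1.48 on the wild type arrays, with no overlap. With 1418907_at the groups overlapped through knockout array 3. These differences are of log2 signals with nothing added. With 50 added the log2 changes were closer together, −0.88 and −0.95 for F5 and −0.73 for Fga. Their difference was not tested on that scale.

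Thbd, which encodes the endothelial receptor that turns thrombin towards protein C, had signals of 174, 198 and 190 on the knockout arrays, against 165, 181 and 170 on the wild type arrays. The groups overlapped. The log2 change was 0.12, with a 95% interval of −0.10 to 0.34 (limma adjusted p = 0.7). Proc, which encodes protein C, a vitamin K-dependent protease, had signals of 1200, 1110 and 1132 on the knockout arrays, against 1041, 919 and 1088 on the wild type arrays. The knockout arrays were all above the wild type arrays, by a narrow gap between 1110 and 1088. The means were 1147 ± 47.1 in knockout and 1016 ± 87.3 in wild type (SD, n = 3 each). The log2 change of 0.18 (SE 0.08) did not pass after adjustment (limma adjusted p = 0.408), and its 95% interval ran from 0.0045 to 0.35.

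Plau, which encodes urokinase, had 2 probe sets. The first, 1422139_at, had signals of 62.1, 88.4 and 63.9 on the knockout arrays, against 82.8, 82.5 and 89.2 on the wild type arrays. Of the knockout arrays 1 and 3 were below all wild type arrays and array 2 was among them. The log2 change was −0.27, with a 95% interval of −0.66 to 0.13 (limma adjusted p = 0.621). The second, 1422138_at, had signals of 27.5 to 30.9 on the knockout and 25.3 to 38.3 on the wild type arrays and a log2 change of −0.13 (limma adjusted p = 0.911).

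Plat, which encodes tissue plasminogen activator, had signals of 593, 588 and 466 on the knockout arrays, against 424, 445 and 475 on the wild type arrays with probe set 1415806_at. Knockout arrays 1 and 2 were above every wild type array, and knockout array 3 was not. The log2 change was 0.29, with a 95% interval of 0.05 to 0.52, and it did not pass after adjustment (limma adjusted p = 0.304). It was 0.40 without knockout array 3 (limma adjusted p = 0.0587). On station 2 knockout array 3 had 466 and wild type array 2 had 445. The second probe set, 1458553_at, ran from 54.1 to 73.9 on the knockout and from 31.8 to 70.1 on the wild type arrays (log2 change 0.24, limma adjusted p = 0.831). Both activator genes and Thbd are expressed by cells of vessels and glomeruli as well, whose marker sums are given above.

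**Figure D2:**
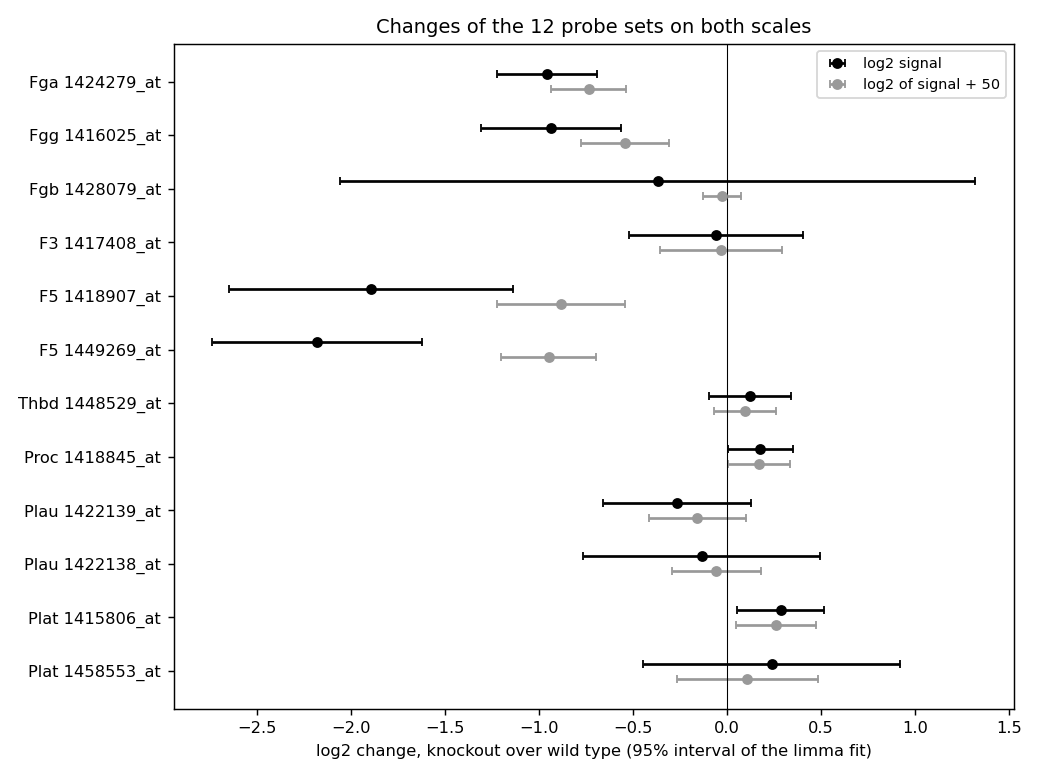
Log2 changes of knockout over wild type for the 12 probe sets, with the 95% interval of the limma fit, on the log2 signal (black) and on the log2 of the signal with 50 added (grey). On both scales the intervals of Fga, Fgg and both F5 probe sets lie below 0. The changes of F5 shrink from −1.89 and −2.18 to −0.88 and −0.95, and the wide interval of Fgb shrinks around 0.

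Of 40 other genes of coagulation and fibrinolysis 36 were measured, and 2 rose and 0 fell by limma at an adjusted p under 0.05. Over all genes 1.36% rose and 1.41% fell. In this pathway 16 of 28 coagulation and 6 of 8 fibrinolysis genes had a mean signal at or above the median probe set. The others were dimmer, where a change is harder to see. At an unadjusted p under 0.05, 4 of the 36 were higher and 4 lower, where 7.7% of all genes were higher and 6.89% lower. Their median log2 change was 0.01, beside 0.01 over all genes, and 19 of the 36 had a log2 change above 0. Proz, which encodes protein Z, the cofactor of an inhibitor of factor X, had means of 110 ± 4.12 in knockout and 56.6 ± 11.3 in wild type (SD, n = 3 each). It rose 1.97-fold (log2 change 0.98, SE 0.17, limma adjusted p = 0.0215), a call that ended within station 1, with no trend and without each array except wild type array 2 (limma adjusted p between 0.0572 and 0.148). Serpinf2, which encodes α2-antiplasmin, the main plasma inhibitor of plasmin, had means of 2840 ± 103 in knockout and 2096 ± 49.3 in wild type. It rose 1.35-fold (log2 change 0.44, SE 0.06, limma adjusted p = 0.005), and without each array in turn the log2 change lay between 0.42 and 0.47 with an adjusted p up to 0.0359. With median centring or no trend its limma adjusted p was 0.264 and 0.248.

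Tfpi, the inhibitor of the tissue factor pathway, was singled out after its values were seen, since its call changed with the setting. It had means of 88.6 ± 29.2 in knockout and 182 ± 18.5 in wild type (log2 change −1.09, SE 0.23, limma adjusted p = 0.0557). The limma adjusted p was 0.0205 when only probe sets above the median signal were tested, 0.0495 with quantile normalization, and 0.0334 and 0.0431 without knockout array 1 or 2. It was 0.0747 with median centring, 0.0831 with the station as a block, 0.294 within station 1, 0.321 with no trend, and 0.111 to 0.201 without knockout array 3 or any 1 wild type array. The log2 change lay between −1.30 and −0.80 in these settings. The mean signals in knockout and wild type were 46.8 and 54.1 for F2, the prothrombin gene, and 7.996 and 10.9 for Plg, the plasminogen gene, which is too dim to follow. F13b, which encodes the carrier subunit of factor XIII, had mean signals of 1437 ± 85.1 in knockout and 1652 ± 7.56 in wild type (log2 change −0.20, limma adjusted p = 0.215). Vkorc1, needed to recycle vitamin K for protein C and other clotting factors, had a log2 change of 0.10 (limma adjusted p = 0.565).

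**Figure D3:**
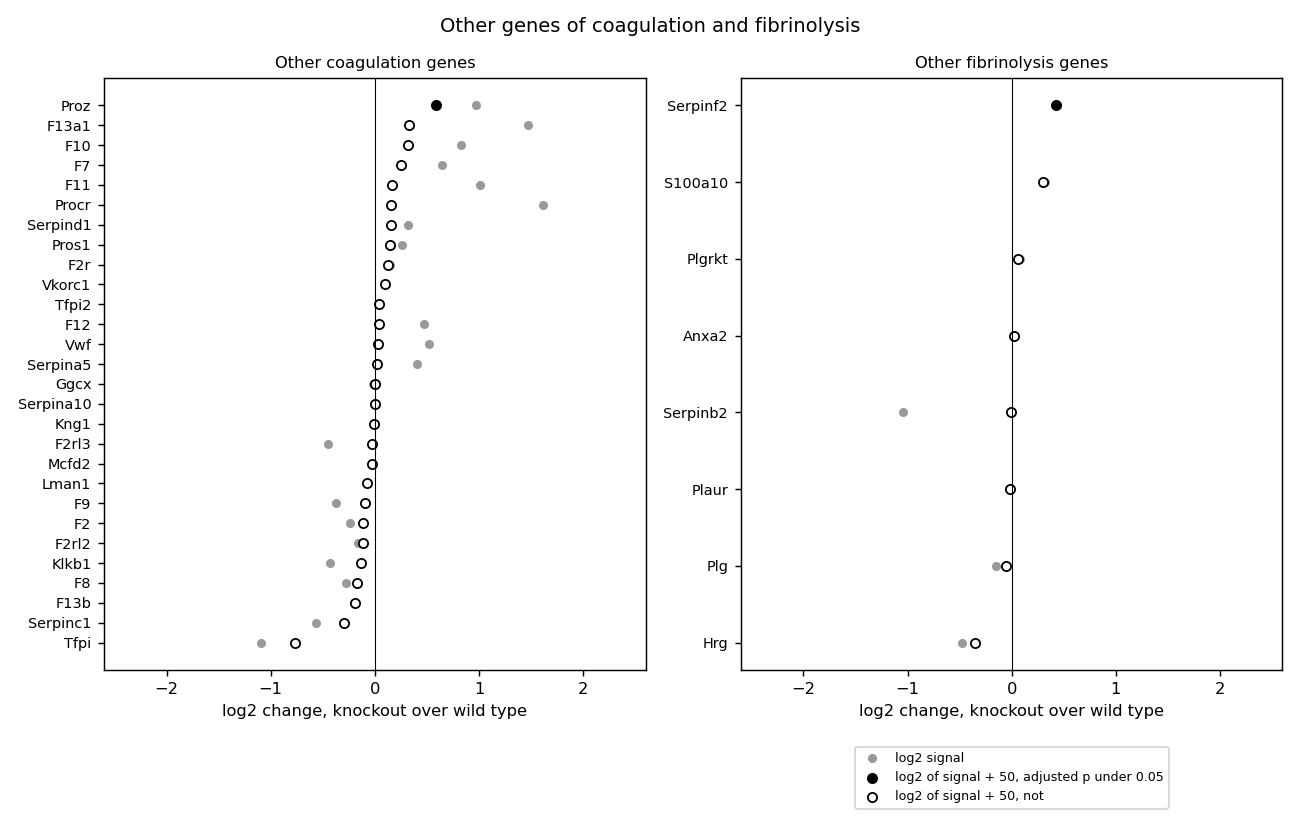
Log2 changes of knockout over wild type for 28 other coagulation genes (left) and 8 other fibrinolysis genes (right), on the log2 signal (grey) and with 50 added to the signal (black rim). Filled symbols have an adjusted p under 0.05 with 50 added, which Proz and Serpinf2 reach. Grey points far from 0 whose rimmed point is near 0 belong to dim probe sets.

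By limma 1.41% of all genes fell and 1.36% rose, and of 7 genes whose products carry a fibrinogen-like domain, 1 passed. This was Angptl4, an inhibitor of lipoprotein lipase, which fell 1.38-fold (means 533 ± 27.6 in knockout and 734 ± 52.2 in wild type, log2 change −0.46, limma adjusted p = 0.0171). Fgl1 and Fgl2, which encode secreted fibrinogen-like proteins, were dim, with signals between 11.5 and 47.1 and between 11.5 and 25.1 on all arrays.

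Among other acute phase genes the only calls were rises, of 3 regulators and of no plasma protein gene. Of 24 measured, 3 rose and 0 fell by limma (4 higher and 1 lower at an unadjusted p under 0.05), with a list median log2 change of 0.26 on the log2 signal and 0.10 with 50 added. Over all genes 1.36% rose and 1.41% fell (7.7% higher and 6.89% lower at an unadjusted p under 0.05). Cebpd, a C/EBP factor that rises in the acute phase, was 2.82-fold higher (means 196 ± 2.89 in knockout and 70.7 ± 15.6 in wild type, limma adjusted p = 0.00133). Cebpb, its relative, was 1.53-fold higher (694 ± 92.5 in knockout and 452 ± 18.7 in wild type, limma adjusted p = 0.0139). Socs3, which is induced by interleukin-6 signals and restrains them, was 1.80-fold higher (143 ± 20.4 in knockout and 79.5 ± 10.5 in wild type, limma adjusted p = 0.0287). None of the plasma protein genes of the list was called, and the nearest to the threshold was Cp (log2 change 0.51, limma adjusted p = 0.0733). They were mostly dim, and 15 of the 24 genes had a mean signal under the median probe set. Leukocyte and podocyte marker sums were also higher on the knockout arrays, and their part was not tested.

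Genes best known from hepatocytes gave 2 falls among 12, where 1.41% of all genes fell. Apob, the apolipoprotein of chylomicrons and very low density lipoproteins, fell 2.83-fold (means 121 ± 7.51 in knockout and 341 ± 13.2 in wild type, limma adjusted p = 7.83e-05). Ttr, which carries thyroxine and the retinol-binding protein, fell 2.15-fold (1517 ± 132 in knockout and 3257 ± 79.0 in wild type, limma adjusted p = 0.000114). Fabp1, a fatty acid-binding protein, had a log2 change of −2.39 (adjusted p = 0.0655) and passed with 50 added (−0.70, limma adjusted p = 0.0202). The other 9 were mixed in level, and 7 of the 12 had a mean signal above the median probe set. Ahsg had signals between 1.53 and 5.78 on all arrays, Arg1 between 0.713 and 3.02, Apoa1 between 15.0 and 24.4, and Tat between 10.7 and 41.0. Alb had means of 100.0 in knockout and 109 in wild type (log2 change −0.12, limma adjusted p = 0.781). Mean signals in knockout and wild type were 102 and 113 for Apoa2, 156 and 192 for Serpina1c, 57.6 and 73.8 for Cps1, and 62.3 and 45.7 for Cyp3a11, none of which passed (limma adjusted p between 0.612 and 0.723). The summed signal of the 12 genes was 2076 to 2297 on knockout and 4101 to 4310 on wild type arrays, most of it from Ttr.

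**Figure D4:**
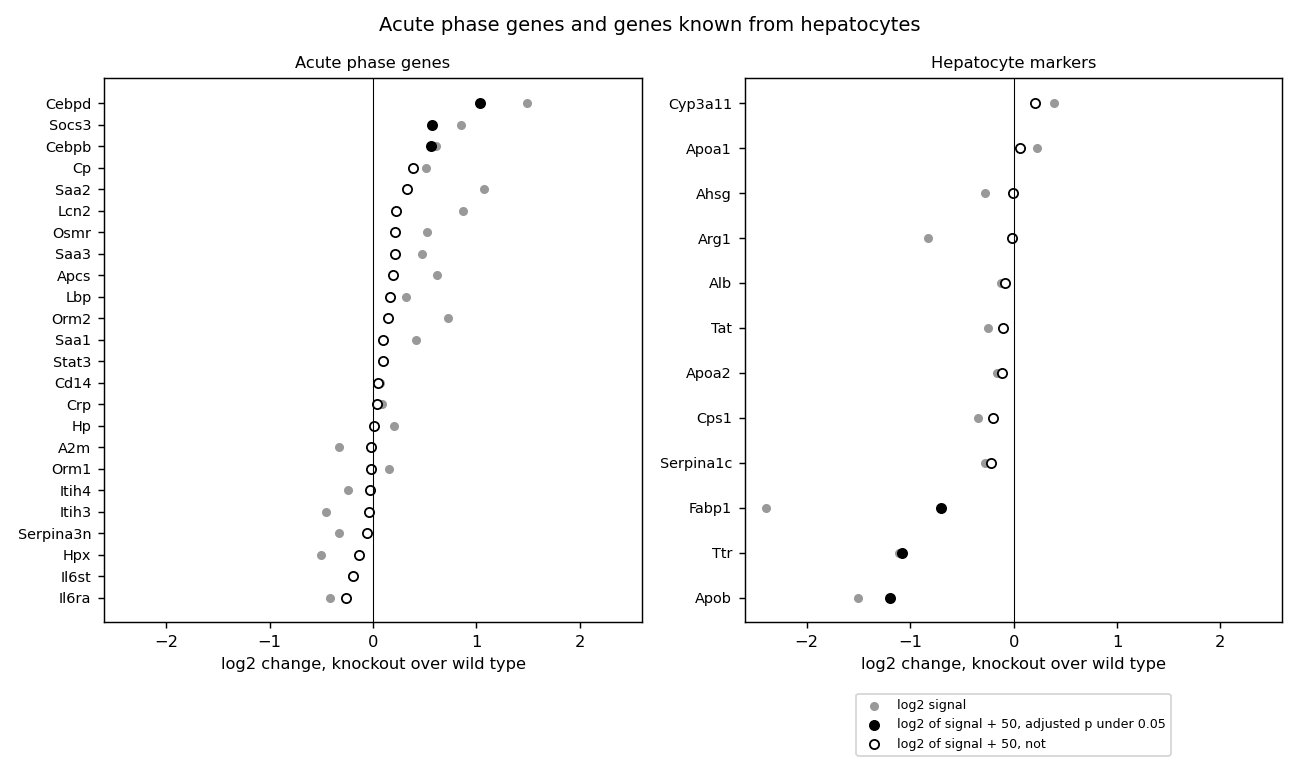
Log2 changes of knockout over wild type for 24 acute phase genes (left) and 12 genes known from hepatocytes (right), on the log2 signal (grey) and with 50 added to the signal (black rim). Filled symbols have an adjusted p under 0.05 with 50 added. Cebpd, Socs3 and Cebpb are to the right of 0, and Apob, Ttr and Fabp1 to the left.

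The genes whose profile over the 6 arrays was most like that of each lowered member were found among 11619 other genes above the median signal. The measure was the largest difference on any array between centred log2 signals with 50 added. For Fga these were Gldc, of the glycine cleavage system (0.05), Cyp2d12, a cytochrome P450 (0.07), and Mgst1, a microsomal glutathione transferase (0.10). For Fgg they were H2aw, a histone gene, Nudt7, a peroxisomal coenzyme A hydrolase, and Pigl, of GPI anchor synthesis (0.06 each). For F5 they were Tspan33, a tetraspanin (0.17), Cyp4a12a, a fatty acid hydroxylase (0.21), and Cyfip2, of the actin-regulating WAVE complex (0.22). No gene was among the 3 nearest of more than 1 member. On this scale the log2 changes of Fga, Fgg and F5 were −0.73, −0.54 and −0.88. Such unlike changes by themselves keep the nearest genes apart, so the lists do not compare the members.

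**Figure D5:**
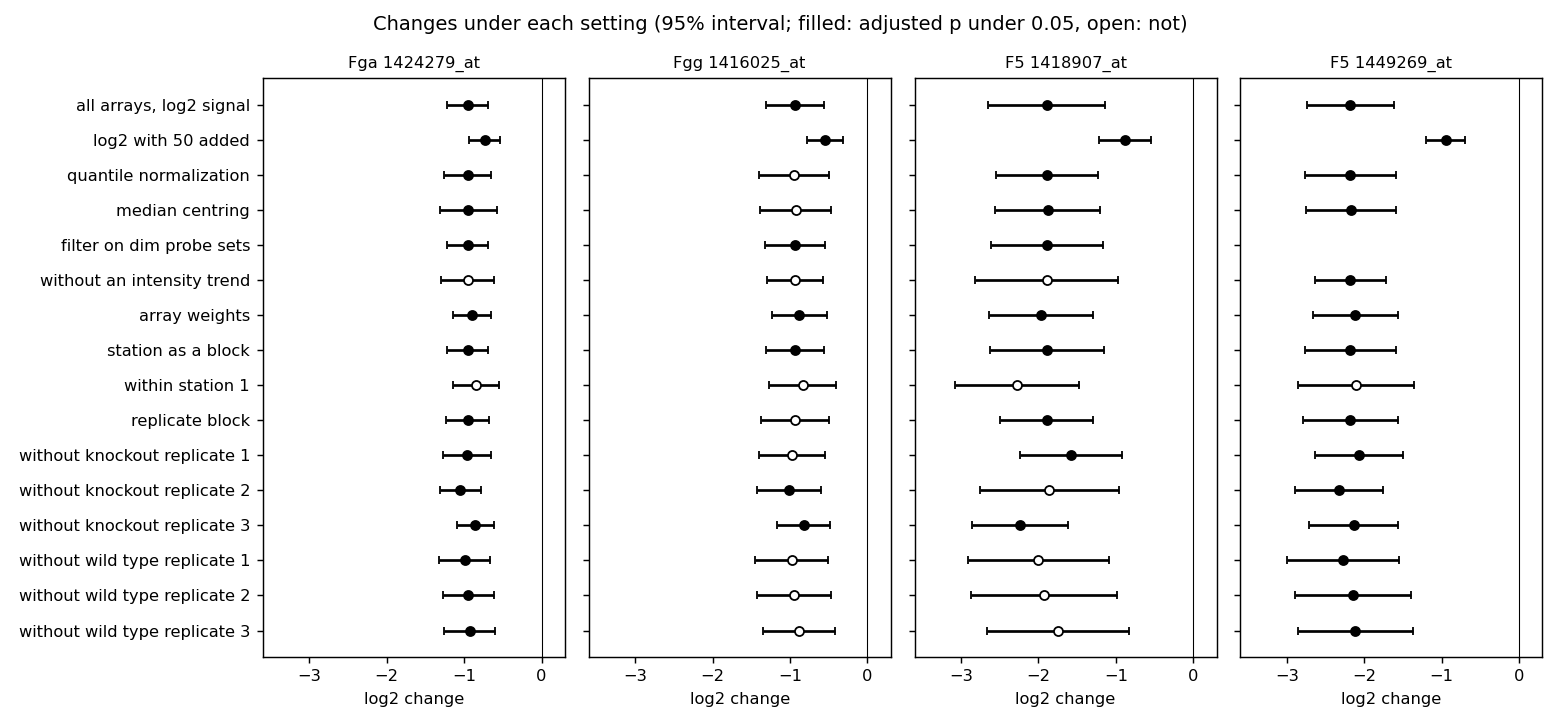
Log2 changes of the 4 lowered probe sets (knockout over wild type) with their 95% intervals under each setting, from all arrays at the top to the arrays left out in turn at the bottom. Filled points have an adjusted p under 0.05 and open points do not. All points lie below 0, and the open points of Fgg and F5 1418907_at include those without each wild type array. F5 1449269_at has no point under the filter on dim probe sets, which it did not pass.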

How the data were processed

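Trizol-extracted RNA, amplified once from its poly(A) end and biotin-labelled (per the labels' protocols), was hybridised to Affymetrix Mouse430_2 arrays, per the file headers. The authors deposited signal intensities on a linear scale. The submitters' processing notes name GCOS 1.4 and MAS5. Groups came from the sample titles. Genes were named through the platform annotation, in which 34945 of the 45037 probe sets have 1 symbol, 932 several and 9160 none, and only the first kind was used.

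Signals were turned to log2 with no pseudocount and no filter, so that every member probe set was tested. Knockout was compared with wild type in limma 3.58.1 (R 4.3.3) by a two-sided moderated test (lmFit, then eBayes with trend) with Benjamini-Hochberg adjustment over all 45037 probe sets. A gene was represented by its probe set with the highest mean. Means and SDs are of linear signals, and a fold is a ratio of geometric means. The steps were tested on simulated data. Replicates are separate RNA pools per the array records, and the p-values measure the spread between them. No genome build is named for the values, and promoter sequences came from the RefSeq tables. The members and gene lists were chosen with earlier results of these data known. The rule named all members, Clcn5, the genes past the threshold in the other coagulation, other fibrinolysis, fibrinogen-like and acute phase lists, and the 3 genes most like each lowered member. Marker, hepatocyte and injury genes and further pathway genes were named after their values were seen. Plots used matplotlib 3.10.9 and tables pandas 2.3.3, under Python 3.11.15.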

Additional observations from a re-analysis of the deposited data

How the results depend on the processing

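The falls of Fga, Fgg and F5 kept their direction under all alternatives run, and what changed was the side of the threshold. Over 15 other settings (14 for the second F5 probe set, and without the 2 chosen after seeing the data) the log2 change of Fga lay between −1.05 and −0.73 (adjusted p up to 0.104, under 0.05 in 13 of 15), that of Fgg between −1.01 and −0.54 (up to 0.162, 6 of 15) and those of the F5 probe sets between −2.28 and −0.88 (up to 0.185, 9 of 15) and between −2.33 and −0.95 (up to 0.0583, 13 of 14). The count of lowered member genes, 3 with all arrays, was 0 without an intensity trend and 0 within station 1, also with 50 added, and it was 1 to 3 with an array left out. It takes F5 from its brighter probe set, and the dimmer one, 1449269_at, stayed called without the trend (limma adjusted p = 0.0367). Over all probe sets, 411 higher and 441 lower with all arrays became 35 and 43 without the trend, 191 and 199 with median centring, and 128 and 179 within station 1 (85 and 141 with 50 added), and 213 to 289 and 229 to 394 with an array left out. With 50 added and without knockout array 3, 264 were higher. Of the other pathway genes, 2 were higher with all arrays, 1 with median centring, within station 1 (0 with 50 added) and with 50 added without knockout array 3, 0 without the trend, and 1 to 2 with an array left out. A lowered gene, Tfpi in the fits over probe sets, was counted (1) with the filter on dim probe sets, with quantile normalization, with the replicate block and with 1 or averaged probe sets per gene, and 0 to 1 with an array left out. The settings that add 50 within station 1 or without knockout array 3 were chosen after seeing the data.

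Changes that were not called and turned sign were those of Plau 1422138_at within station 1 (0.037, and 0.0096 with 50 added), F3 (−0.29 to 0.077 with an array left out), Fgb (−0.76 to 0.34) and Plat 1458553_at (−0.11 to 0.46). Same-numbered knockout and wild type arrays did not deviate together (correlations of −0.04 to 0.04 across probe sets), and not every array correlated best with its own number. With the replicate number as a block, 289 probe sets were higher and 354 lower, the log2 change of Fgg was −0.94 with an adjusted p of 0.0679, and Fga and F5 stayed called. Low signal limits Fgb, F5 in knockout and many plasma protein genes, since no detection calls were used here.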
